A study of Saccharomyces cerevisiae with 7 samples.

Results

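The hour between 1 h and 2 h of a meiotic time course was described in budding yeast (Saccharomyces cerevisiae) as the change in each open reading frame (ORF): its log2 value at 2 h minus its log2 value at 1 h. Of 6141 ORFs in the table, 5635 had a value at both times and were used, and 506 were not. The culture carried spo11-Y135F, an allele of SPO11 in which the catalytic tyrosine of the enzyme that breaks DNA in meiosis is exchanged. All 7 arrays, of 1, 2, 3, 4, 5, 6 and 8 h, are of this mutant, so nothing below compares it with a wild type. Each array compared mRNA of its time (Cy5) with a pool of mRNA of every time (Cy3). The deposited value of an ORF is the log2 of this ratio after division by the ratio at 0 h, called the log2 ratio to 0 h below. The labels name neither the strain background nor the ploidy, medium or age of the culture. The design text speaks of 2 independent cultures, but each time has 1 column of values. A change therefore has no replicate spread, no test and no p-value: every size below is a description of 2 arrays.

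Cells entering meiosis first replicate their genome once in premeiotic S phase. Replication is coupled to the making of histones, the proteins that package new DNA, and of cohesin, the ring that holds sister chromatids together. In yeast the transcription factor Ime1 starts the programme, the kinase Ime2 and the B-type cyclins Clb5 and Clb6 drive S phase, and the early meiotic genes for chromosome axes and recombination are transcribed over the same period. DNA content was not among the data analysed here, so the label of S phase was checked only through transcripts.

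Most ORFs moved little in this hour. The median change was -0.03 with quartiles at -0.35 and 0.30, and 4302 ORFs (76.3%) had 1 h and 2 h values within 1.5-fold of each other. At a threshold of 2-fold (a change of at least 1 or at most -1 on the log2 scale), 161 ORFs were higher at 2 h, which is 2.86% of those measured, and 163 were lower, which is 2.89%. Together these make 5.75%. The background for the higher members of a list below is 2.86%, and that for its lower members 2.89%. Counts of members by the sign of their change are given beside the median change of all ORFs, -0.03. The share of all ORFs on each side of 0 was not counted. Since that median is below 0, more ORFs had a change below 0 than above it. A member at the median of all ORFs therefore counts as below 0. Beyond 4-fold there were 11 higher and 10 lower ORFs. Just inside the threshold lay HHO1 and RPC82 at 2.01-fold higher, and just outside it RPS25A and HST2 at 1.99-fold. On the lower side CTF13 and YOL099C lay just inside, and HIS3 and YIL059C just outside. Since the values are shares of an mRNA pool from a whole culture, fewer cells of a kind and less transcript per cell cannot be told apart.

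The higher ORFs had 1 h values on both sides of the 0 h level. At 1 h 36 of them lay at least 2-fold below that level and 26 at least 2-fold above it. Of the 161, 80 lay below the 0 h level at 1 h and above it at 2 h, 56 lay above it at both times and 25 below it at both. Their median log2 ratio to 0 h was -0.50 at 1 h and 0.96 at 2 h, and later 0.70 (3 h) and 0.23 (8 h). The lower ORFs had the opposite course: 96 of 163 passed from above the 0 h level to below it, and their medians were 0.79 and -0.53 at the 2 times compared and -0.41 (3 h) and -0.08 (8 h) later. The values at 1 h and 2 h chose these ORFs, so their counts and medians at those times describe the choice.

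**Figure D1:**
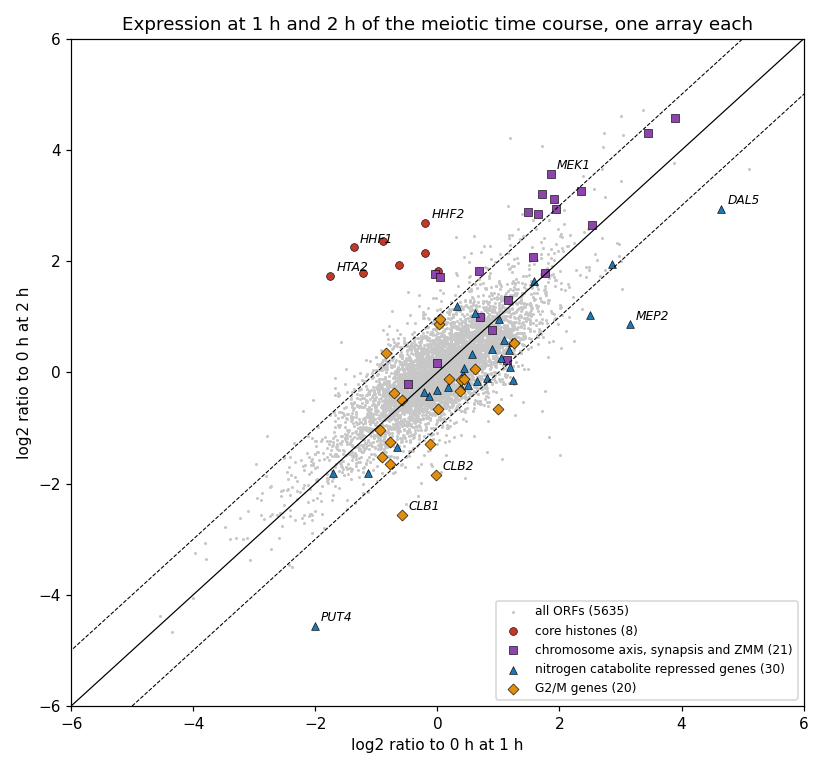
Log2 ratio to 0 h at 1 h (x axis) against 2 h (y axis) for 5635 ORFs; the solid line is no change and the dashed lines are 2-fold. The 8 core histone genes lie together far above the upper line, axis and synapsis genes mostly above 0 on both axes and above the solid line, and PUT4, MEP2, DAL5, CLB1 and CLB2 below the lower line.

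The label of meiosis was checked against genes of the early meiotic programme. IME1 stood at 2.75 at 1 h and 3.15 at 2 h on the log2 ratio to 0 h, IME2 at 3.05 and 4.28, HOP1 at 3.44 and 4.31, and REC8 at 3.89 and 4.57. These genes of the meiotic programme were thus well above 0 h at both times. Their 2 h values were the higher ones as deposited, but after quantile normalization the change of IME1 was -0.07, that of REC8 0.00 and that of HOP1 0.22. SPO11 itself, whose product carries the exchanged residue, was at 0.88 and 1.32. Of genes often used as a reference, ACT1 (actin) was at -1.49 and -1.17 and PGK1 (a glycolytic enzyme) at -2.41 and -2.48, so both were below 0 h on the 2 arrays.

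The 8 core histone genes formed the most displaced of the 46 lists: all 8 were at least 2-fold higher at 2 h, and their median change was 2.94 beside -0.03 over all ORFs. At 1 h 7 of them lay below the 0 h level and HTB2 on it, and at 2 h all stood between 1.74 and 2.69. Among the H4 genes, HHF1 went from -1.37 to 2.25, a 12.3-fold difference and the highest of all 5635 ORFs, and HHF2 from -0.20 to 2.69, or 7.39-fold. The H3 genes HHT1 and HHT2 went from -0.63 to 1.93 and from -0.21 to 2.14, which is 5.89-fold and 5.11-fold. Of the H2A genes, HTA2 was the lowest of the set at 1 h, at -1.76, and HTA1 was at -1.22, against 1.74 and 1.78 at 2 h (11.3-fold and 8.02-fold). For H2B, HTB1 went from -0.89 to 2.36, a 9.47-fold difference, and HTB2 from 0.00 to 1.82, the smallest at 3.51-fold. At 2 h the genes lay within 1 log2 unit of each other, while at 1 h they were spread over more than that, so the changes differed mainly through the 1 h values. Each protein comes from a pair of genes of near-identical coding sequence, and where a probe reads both copies their values are not separate measurements.

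**Figure D2:**
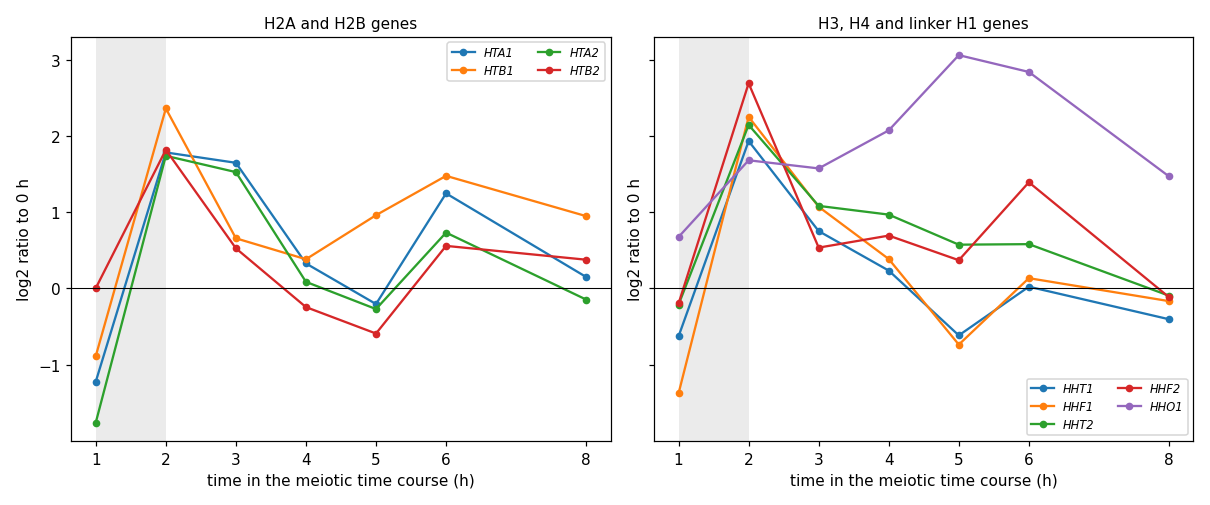
Log2 ratio to 0 h (y axis) by time in hours (x axis, 1 array per time) for the H2A and H2B genes (left) and the H3, H4 and linker H1 genes (right); the grey band is the hour from 1 h to 2 h. All 8 core genes are far higher at 2 h than at 1 h and lower again by 3 h, or by 4 h for HTA1 and HTA2, while HHO1 is higher at 5 h than at 2 h.

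The 2 h level of the core histones was brief for 6 of the 8. HHF2 was 2.15 log2 units lower at 3 h than at 2 h, HTB1 1.70, HTB2 1.29, HHF1 and HHT1 1.18 each and HHT2 1.06. HTA1 and HTA2 were within 0.14 and 0.21 of their 2 h value at 3 h, at 1.65 and 1.52, and at 4 h they were at 0.33 and 0.09. The H2A genes thus kept their level for 1 sampling time longer than the other core histone genes in these single arrays. 

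Among histone genes outside the core set, HHO1 differed in timing. This gene of the linker histone H1 went from 0.67 to 1.68 in the hour described and stood at 1.57 (3 h) and 3.06 (5 h). Its highest value thus came later than those of the core histone genes. CSE4, the centromeric H3 variant, was at 1.04 and 1.32. Genes that control histone transcription or place histones on DNA did not move as a group: 0 of 15 were 2-fold higher, 1 was lower, and their median change was 0.07. The chaperone genes RTT106 and RLF2 had changes of 0.67 and 0.57. HPC2, a subunit of the HIR complex that represses histone genes, was the lower one, at 1.53 at 1 h and 0.45 at 2 h (-1.08, or -0.98 with the columns centred and scaled).

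Among replication genes, licensing genes were mostly lower and firing genes mostly higher at 2 h. Origin licensing loads the Mcm helicase on DNA through the origin recognition complex; here 10 of 12 measured genes had a change below 0, the median change was -0.41, and 1 gene passed 2-fold. That gene was MCM4, at 0.48, -0.64 and 0.41 at 1, 2 and 3 h. The exception among the Mcm genes was MCM5, which went from 0.25 to 1.01. MCM3 went from 1.62 to 0.86, MCM6 from 1.42 to 0.85, MCM2 from 0.39 to 0.10 and MCM7 from 0.79 to 0.56. Thus 5 of the 6 subunits of one complex were lower while the remaining one was higher. The changes of MCM2 and MCM7 lay within the quartiles of all ORFs, -0.35 and 0.30. In the recognition complex ORC1, ORC2 and ORC5 had changes of -0.42, -0.48 and -0.70, and ORC3 and ORC4 of -0.03 and 0.00.

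Of 12 measured genes for origin firing and the fork, 10 had a change above 0, the median was 0.49, and 2 passed 2-fold. DBF4, the regulatory subunit of the kinase that fires origins, was at -0.20 at 1 h and 1.05 at 2 h (2 h minus 1 h: 1.25), and CDC7, its catalytic subunit, at 0.47 and 0.96. The GINS complex activates the loaded helicase, and its genes PSF1, PSF2 and PSF3 had changes of 1.12, 0.71 and 0.80, beside 0.15 for SLD5. CDC45, which works with GINS, stayed at 0.58 and 0.66. MRC1 and CSM3 of the fork checkpoint had changes of 0.50 and 0.92, and TOF1, their partner, of -0.19. Members of one complex were thus not all displaced alike.

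At the fork itself, differences were smaller. None of the 10 polymerase and primase genes passed 2-fold (median change 0.28), with PRI2 and POL1, of the priming polymerase, at 0.79 and 0.73 and POL31 at -0.86. POL30, which encodes the sliding clamp PCNA, was the only 1 of 15 clamp, loader, single-strand-binding and Okazaki genes to pass, at 1.63, 2.84 and 1.28 at 1, 2 and 3 h. The subunits of the single-strand-binding protein RPA were high at both times: RFA1 was at 1.63 and 2.01 and RFA3 at 1.62 and 2.58. RAD27, the flap nuclease that matures Okazaki fragments, ran the other way, from 1.26 to 0.39.

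Deoxynucleotide supply held 0 of 11 genes past 2-fold, with a median change of 0.36. RNR1, the large subunit of ribonucleotide reductase and its S-phase regulated part in dividing cells, was at 0.70 and 0.82. RNR2 and RNR4, of the small subunit, were below 0 h and differed in sign of change, at 0.70 and -0.28. DUT1, which keeps uracil out of DNA, and YNK1, a nucleoside diphosphate kinase, had the highest changes of the list, at 0.94 and 0.91, and CDC21, thymidylate synthase, was at 0.61. In the plot of replication and cohesin genes the nucleotide genes show short bars beside those of cohesin.

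**Figure D3:**
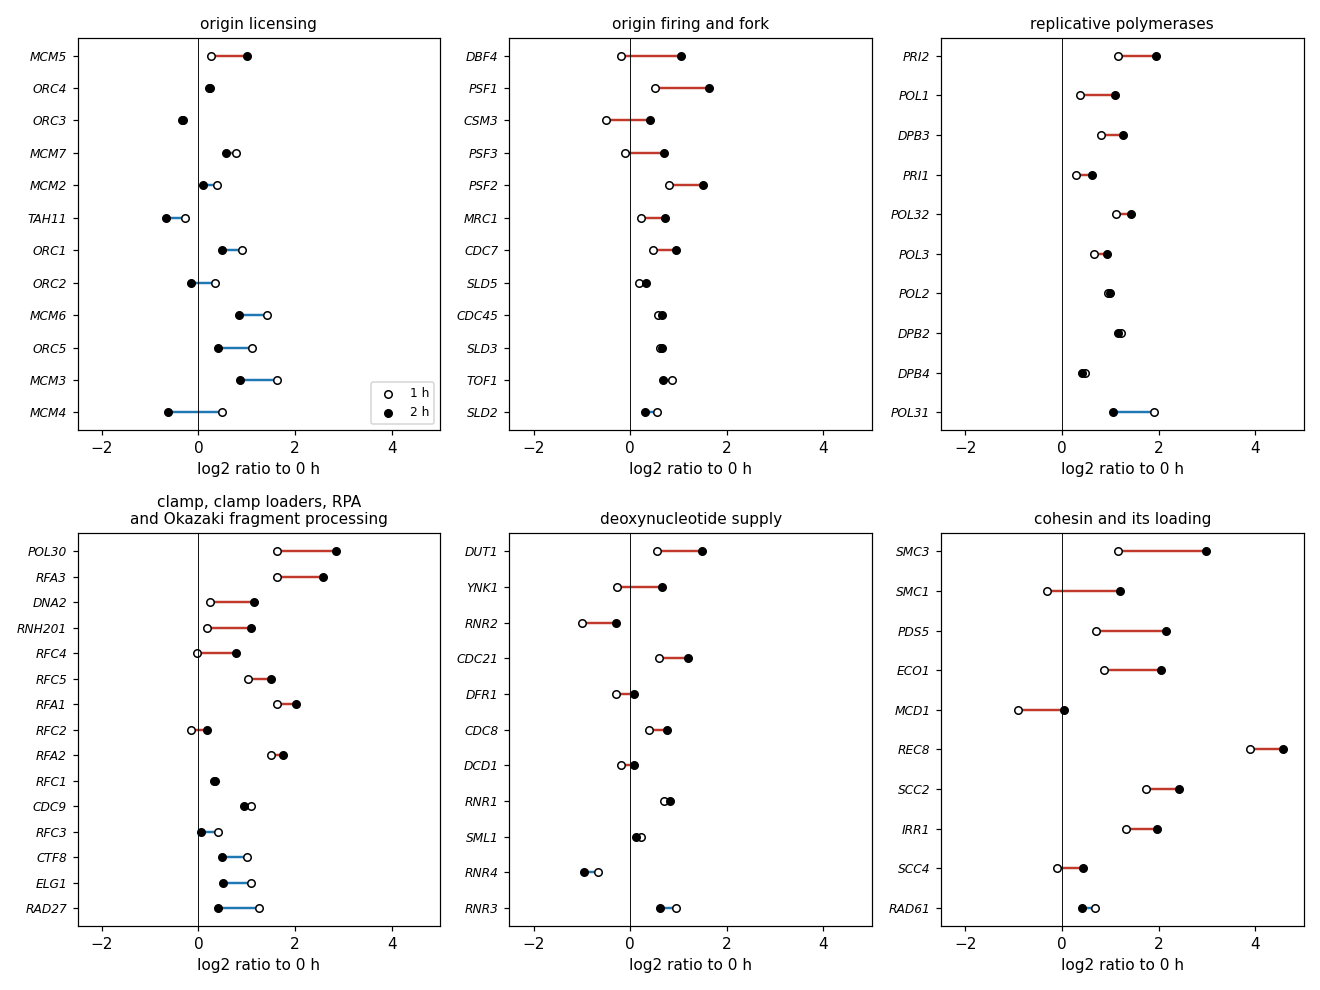
Log2 ratio to 0 h (x axis) at 1 h (open circles) and 2 h (filled circles) for each measured gene of 6 lists, 1 array per time; red bars run to a higher and blue bars to a lower 2 h value. Licensing genes are mostly blue, with MCM5 the clear exception, and 9 of 10 cohesin genes are red.

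Cohesin genes were higher as a set: 9 of 10 had a change above 0, 4 passed 2-fold, and the median was 0.81. The genes of the ring's SMC arms were SMC3, at 1.15 and 2.98 (2 h minus 1 h: 1.83), and SMC1, at -0.31 and 1.20 (1.51). PDS5, a regulator of the ring, and ECO1, the acetyltransferase that locks it in S phase, had changes of 1.46 and 1.16. The 2 kleisins, which close the ring in mitosis and meiosis respectively, lay far apart in level: MCD1 was at -0.91 and 0.03, and meiotic REC8 at 3.89 and 4.57. IRR1, SCC2 and SCC4 had changes of 0.63, 0.67 and 0.55, and only RAD61, which opens the ring, had one below 0, at -0.27.

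Among G1/S regulators the direction divided by gene. The S-phase cyclin genes CLB5 and CLB6 were at 0.80 and -0.01 at 1 h and at 1.88 and 1.12 at 2 h, and SWI4, a transcription factor of G1, went from 0.05 to 1.48. The G1 cyclin genes went the other way: CLN2 was at 0.30 and -0.89, and CLN3 at 0.62 and -0.37, just short of 2-fold. Of the 15 genes 3 were higher and 1 lower, and the median change was -0.06.

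The mitotic genes were mostly lower. In the G2/M list 15 of 20 genes had a change below 0, 4 passed 2-fold against 1 higher, and the median was -0.56. CLB1, a mitotic cyclin gene, was at -0.57, -2.57 and -2.46 at 1, 2 and 3 h, a 3.98-fold difference between 1 h and 2 h. CLB2, its closest relative, was at -0.03, -1.84 and -0.87 at the same times. ALK1, a haspin kinase gene, and HOF1, of cytokinesis, had changes of -1.65 and -1.18. FKH2 and NDD1, the factors that activate CLB2 transcription in mitotic cells, were instead higher, with changes of 1.20 and 0.92, and so was the cyclin gene CLB4 at 0.84. The polo kinase gene CDC5 was at -0.78 and -1.26, before 3.17 at 4 h. Genes of daughter cell separation and budding had 3 of 19 lower, 1 higher and a median change of -0.31. The lower ones were SCW11, DSE4 and EGT2, at -1.40, -1.22 and -1.10, all expressed in daughter cells after division, and the higher one was the chitin synthase gene CHS1, at 1.04.

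**Figure D4:**
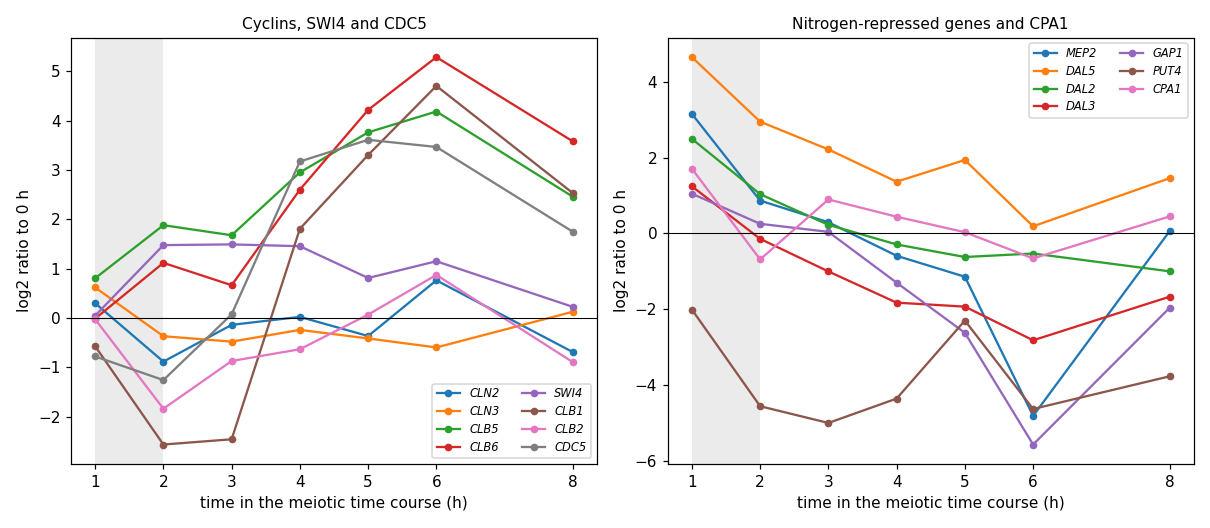
Log2 ratio to 0 h (y axis) by time in hours (x axis, 1 array per time) for cyclin genes, SWI4 and CDC5 (left) and for nitrogen-repressed genes and CPA1 (right); the grey band is the hour from 1 h to 2 h. From 1 h to 2 h CLB5, CLB6 and SWI4 run to higher and CLN2, CLN3, CLB1 and CLB2 to lower values, and all 7 genes on the right run to lower values, CPA1 with a higher value again at 3 h.

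Genes that control entry into meiosis were mostly higher at 2 h, with 4 of 17 past 2-fold, none lower and a median change of 0.27. IME1 differed by 0.41 and IME2, a direct target of Ime1, by 1.23. KAR4, a transcription factor of mating that also acts in meiosis, went from -0.45 to 1.03, SLZ1 from 1.16 to 2.47 and MUM2 from 0.22 to 1.27. MUM2 and SLZ1 are partners of the mRNA methyltransferase Ime4, and IME4 itself stayed at 1.11 and 1.15. NDT80, the factor that opens the middle genes, was at 1.51 and 1.07, and UME6, the platform on which Ime1 acts, at -0.35 and -0.27. After quantile normalization of the 2 columns IME1 differed by -0.07, the other direction, and IME2 by 0.26, which is short of 2-fold.

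Of 21 genes of chromosome axes, synapsis and the ZMM crossover proteins, 19 had a change above 0, 8 were past 2-fold higher and 0 lower, and the median change was 0.87. REC8 belongs to this list and to that of cohesin. After quantile normalization this median was 0.41 with 16 above 0 and 7 past 2-fold, and with the columns centred and scaled to equal spread it was 1.16 with 12. SPO16, of the ZMM group, was at -0.04 and 1.77, MEK1, the axis kinase, at 1.85 and 3.58, and ECM11, of the central element, at 0.04 and 1.72. ZIP1, the transverse filament of the synaptonemal complex, was at 1.71 and 3.21, and HOP1, an axis protein, at 3.44 and 4.31. PCH2, SPO13, CSM4 and NDJ1, named after their values were seen, make up the other members past 2-fold, with changes between 1.15 and 1.41.

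Several genes of this set were level between 1 h and 2 h and higher at 3 h. MSH5 was at 1.77, 1.79 and 3.54 at 1, 2 and 3 h, whereas MSH4, whose product is its partner, was at 2.36, 3.27 and 4.51. GMC2 and HFM1 likewise differed by 0.16 and 0.11 between 1 h and 2 h and stood at 3.94 and 4.00 at 3 h. CST9 had a change of -0.12. MAM1, of the complex that orients sister kinetochores at the first division, went from 1.13 to 0.23. MSH4, GMC2 and HFM1 were named after their values were seen.

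Break-formation genes all had a change above 0 (11 of 11), with 2 past 2-fold and a median of 0.43. REC102 went from 1.46 to 2.88 and REC114 from 1.40 to 2.45, and REC114 stood at 4.10 at 3 h. MEI4 and REC107, which act with REC114, had changes of 0.67 and 0.06, and REC104, the partner of REC102, of 0.25. SPO11 differed by 0.44 and reached 2.33 at 3 h. In the strand-exchange list 8 of 9 genes were above 0, 3 passed 2-fold, and the median was 0.79. The list holds the kinetochore gene NDC80 through an older shared name, at 0.79. NDC80 is thus 1 of the 8, and the median is its own value. With any 1 gene left out the median lay between 0.69 and 0.86. MEI5, which helps load Dmc1 on DNA, was at 3.01 and 4.62, DMC1, the meiotic recombinase, at 2.71 and 4.05, and HOP2, its accessory factor, at 2.38 and 3.52. RAD54, a motor protein gene of recombination, was lower, at 0.56 and 0.04. Under quantile normalization only 1 of the 9, MEI5, stayed past 2-fold, with DMC1 at 0.62 and HOP2 at 0.76, and REC114 of the break genes was at 0.92. Of 28 middle meiotic genes, which serve the divisions and spore formation, 4 were higher and 1 lower, and the median change was 0.23. SPO71 and CHS3 each had a change of 1.31 and DON1 of 1.20, while GIP1 was at -1.21.

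DNA damage response genes held 0 of 20 past 2-fold in either direction, with a median change of 0.24. The checkpoint genes RAD17, MEC3 and RAD53 were the highest at 0.95, 0.81 and 0.70, and the repair genes RAD2, RAD54 and RAD16 the lowest at -0.73, -0.51 and -0.41.

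Genes under nitrogen catabolite repression, which serve the use of poor nitrogen sources, were the lowest list. Of 30, 27 had a change below 0, 6 were at least 2-fold lower and 0 higher, and the median change was -0.66, from a median of 0.63 at 1 h to 0.09 at 2 h. PUT4, the proline permease gene, was at -2.01 and -4.56, a 5.86-fold difference, and so was far below 0 h throughout. MEP2, the ammonium transporter and sensor, was high instead at 1 h, at 3.15, and then at 0.87 and 0.29 at 2 h and 3 h. DAL5, the allantoate permease gene, was the highest of the list at both times, at 4.65 and 2.95. DAL2 and DAL3 of allantoin breakdown and ASP3-1, 1 of several near-identical asparaginase genes whose values may not be separable, complete the 6, with changes of -1.46, -1.39 and -1.10. GAP1, the general amino acid permease, went from 1.05 to 0.25. The arginine genes CAR1 and CAR2 and the permease gene UGA4 had changes of 0.87, 0.07 and 0.46, the only 3 above 0.

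Biosynthetic lists lay on the same side of 0, apart from purine synthesis, which was close to the median of all ORFs. Amino acid synthesis genes under Gcn4 had 5 of 49 lower, 0 higher and a median change of -0.41. CPA1, the small subunit of the arginine-specific carbamoyl phosphate synthetase, was at 1.71, -0.69 and 0.90 at 1, 2 and 3 h, so that it was higher again 1 h later. BAT1, ASN1 and LEU1 had changes of -1.60, -1.39 and -1.27. GCN4 itself went from -0.37 to 0.52. Sulfate assimilation and methionine genes had 3 of 25 lower and a median of -0.43, with MET17, MET6 and SUL2 at -1.25, -1.17 and -1.17. SUL1, the other sulfate permease gene, was at 0.39 and 0.78. Amino acid permeases had a median of -0.45 with 1 of 20 lower, which was PUT4. Sterol synthesis (23 genes, median -0.36) and pyrimidine synthesis (10 genes, median -0.32) had none past 2-fold. Purine synthesis had 1 higher and 2 lower of 19 with a median of -0.04, beside -0.03 over all ORFs.

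Carbon and energy genes divided. Glycolysis and fermentation genes had 4 of 21 lower, 0 higher and a median change of -0.41: FBA1, HXK2, ENO1 and PDC5 were between -1.09 and -1.01, of which 2 stayed past 2-fold with the columns centred on their medians, and TDH3 went from -1.49 to -2.47. Acetate use, the glyoxylate cycle and gluconeogenesis had 2 of 24 lower (IDP2 at -1.38 and YAT1 at -1.02) and a median of -0.15. Respiratory chain and ATP synthase genes lay on the other side, with 22 of 32 above 0 and a median of 0.28, though only COX8 passed 2-fold, at 1.11. TCA cycle genes (16, median 0.14) and hexose transporters (19, median -0.08) had none past 2-fold.

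The ribosomal protein genes, which were far below 0 h at both times (medians -1.67 and -1.58), were nearly level as a list, with 3 higher and 3 lower of 131 and a median change of 0.07, or -0.02 with the columns centred and scaled. RPL9B, RPS17B and RPL15B were the higher ones, at 1.64, 1.32 and 1.12, and RPS22A, RPS7A and RPL16B the lower ones, at -1.85, -1.74 and -1.23; 5 were lower after quantile normalization or scaling. RPL3 was at -2.06 and -2.89. Ribosome biogenesis (1 higher and 1 lower of 56, median 0.04) and mitochondrial ribosomal proteins (0 and 1 of 61, median -0.07) were also close to the background. NOP56, a core protein of snoRNA particles, was the higher one in biogenesis, at -0.89 and 0.77. Of the translation factor genes YEF3 alone passed, at 1.21 (25 genes, median 0.10), and of RNA polymerase I and III genes RPC82 alone, at 1.01 (15 genes, median -0.20).

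Proteasome genes shared a small shift: 30 of 34 were above 0, the median change was 0.38, and PRE9, PRE8 and RPN8 passed 2-fold at 1.10, 1.05 and 1.01. HSP82, the inducible Hsp90 gene, went from -0.74 to 1.10 and was the only 1 of 27 heat shock and chaperone genes past 2-fold (median 0.22). Iron regulon genes had 4 of 23 lower, 1 higher and a median of -0.46: FIT1 and FIT2, cell wall proteins for iron capture, were at -1.02 and -1.26, and ISU1, the iron-sulfur scaffold, at 1.39. COT1, a vacuolar transporter in this list, went from 0.45 to -1.90. Tubulin and spindle genes had 4 of 19 higher and 1 lower, with a median of 0.15; TUB2 and TUB1, for beta- and alpha-tubulin, had changes of 1.41 and 1.20, and CIK1 and KAR3, which form 1 motor, of 1.09 and 1.02. SPC42, of the spindle pole body, was the lower one at -1.02, and fell short of 2-fold under each of the 3 other scalings. Of 20 mating genes 4 were higher and 1 lower (median -0.03). AGA2, an agglutinin gene that neighbours HOP2, was at 2.73 and 4.30, and ASH1, a repressor of HO in daughter cells, at 1.13 and -0.09.

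**Figure D5:**
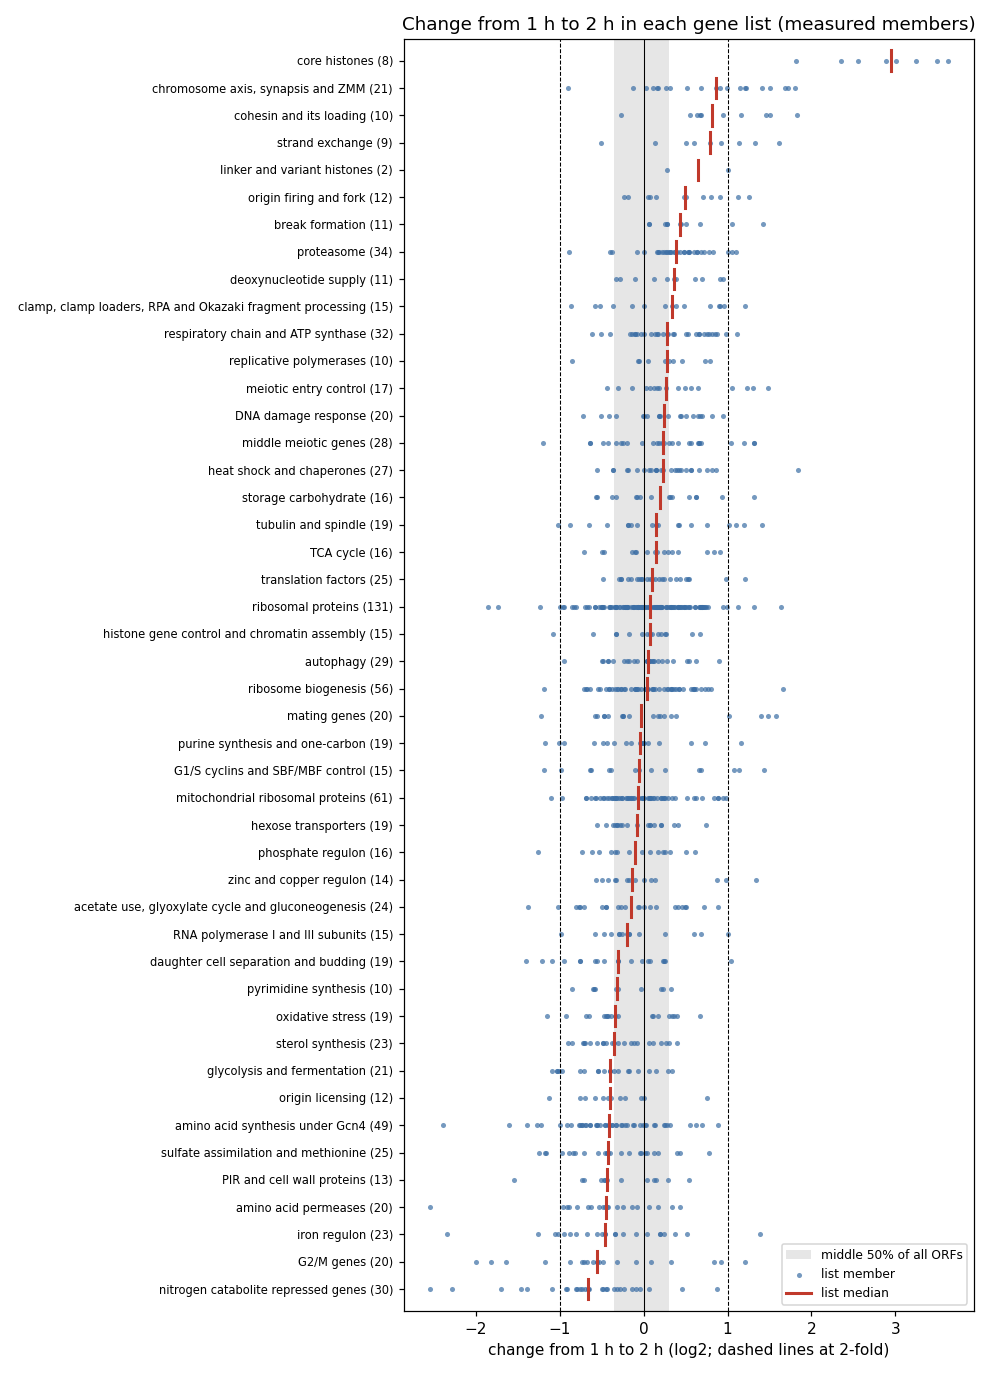
Change from 1 h to 2 h (x axis, log2) of each measured member (dots) of 46 gene lists ordered by their median (red bars), with the number measured in brackets; the grey band is the middle 50% of all ORFs and the dashed lines are 2-fold. Only the core histones have their median beyond 2-fold, at 2.94, and the nitrogen-repressed genes have the lowest, at -0.66.

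Of the 161 higher ORFs 63 were in one of the lists, and of the 163 lower ORFs 47, beside 1044 of all 5635 ORFs. The lists were chosen with earlier results of these data known, so these counts are not read further. Outside the lists, the highest named gene was RNP1, an RNA-binding protein gene, at 1.19 at 1 h and 4.22 at 2 h (8.15-fold), with 5.04 at 3 h. FRQ1, a calcium-binding regulator of phosphatidylinositol 4-kinase, was at 0.30, 2.43 and 0.37 at 1, 2 and 3 h, a level seen at 2 h alone. MSC6 went from -1.58 to 0.54, EMP24, a cargo receptor of vesicles leaving the endoplasmic reticulum, from -0.48 to 1.44, IRC10 from 0.59 to 2.45, and TIM18, of the mitochondrial inner membrane translocase, from -0.30 to 1.39.

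At the other end FAR3, of pheromone-induced cell cycle arrest, was at 1.82, -1.17 and 1.55 at 1, 2 and 3 h, so that its 2 h value alone stands apart. GAL3, the galactose sensor, went from 1.07 to -1.55 and stayed at -0.99 at 3 h. MDL2, a mitochondrial transporter gene, went from 0.82 to -1.44, AIM22 from 1.76 to -0.34, and ASC1, a protein of the small ribosomal subunit outside the list by its name, from -0.32 to -2.23. PUF6, APM4, BUD7 and HMS2 had changes between -1.73 and -1.60. The lowest ORF of all, YLR269C, has no gene name in the table used and was named after its value was seen; it was at 2.01, -1.49 and -0.05 at 1, 2 and 3 h.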

How the data were processed

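The values are log2 ratios of 2-colour arrays that the authors made and deposited: per the labels and the series' design text, each array's Cy5 to Cy3 ratio was divided by the 0 h ratio and log2 was taken. Platform, background correction, normalization within arrays and spot filters are not stated in these sources, and no intensities were used, so signal over background is unknown. The 7 columns were used as deposited, and the change of an ORF is its 2 h minus its 1 h value; both share the 0 h ratio, which cancels. Of 5635 ORFs, 5194 were matched by systematic name to the R64 gene table of RefSeq, which gave 4724 gene names and the order of neighbours; the rest are called by systematic name. The array's build is not named, so coordinates were left out.

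With 1 array per time there was no test. A list is described by its members past 2-fold and its median change beside the same over all ORFs. The lists (46, with 1044 of 1124 genes measured) and the genes named were chosen with earlier results of these data known. Named were the 20 highest and 20 lowest changes among ORFs with a gene name, up to 3 at each end of a list, members of lists of up to 18, 39 measured of 40 chosen genes, and flanking ORFs of the 5 highest and 5 lowest. Other genes named fall outside this rule and were chosen with their values known, which is not said beside each of them. DAL2, DAL3, ASP3-1, HOF1 and OSW1 are examples. The 2-fold calls and the scalings were tested on simulated data with known changes. These changes were all past 2-fold, and the noise was smaller than the spread of the real changes. List medians, neighbours and gene pairs were not part of that test. Alternatives were centring, quantile normalization, scaling to equal spread, ORFs with all 7 times and matched ORFs only. Python 3.11.15, pandas 2.3.3, numpy 2.4.6 and matplotlib 3.10.9 were used. Promoter motifs were planned and not run, since no promoter sequence was used here. A few single genes are left out of the text.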

Additional observations from a re-analysis of the deposited data

How the results depend on the processing

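The count of 161 higher and 163 lower ORFs became 185 and 145 with the columns centred on their medians, 165 and 162 after quantile normalization, 182 and 154 with the columns centred and scaled to 1 spread, 160 and 161 with ORFs measured at all 7 times, and 153 and 146 with matched ORFs only. Neither of these counts moved by 1.5 times. Within a list, the number past 2-fold moved by at most 2 genes in a direction, apart from 8 to 12 in the axis and synapsis list after scaling. The median change of all ORFs stayed within -0.03 and 0.00. The axis and synapsis list had a median of 0.41 after quantile normalization and 1.16 after scaling, against 0.87, and the cause was not tested; the medians of the other lists moved by less than 0.25 under these settings. Leaving out a gene put the median of the 2 linker and variant histones at 0.28 or 1.00. That of the core histones lay between 2.86 and 3.04. Of 903 recomputed changes of 301 named genes, 873 kept their side of the 2-fold line, 13 lost it (10 genes, IME2, DMC1, HOP2, AGA2 and REC114 among them), 17 reached it, and 0 of those past 2-fold turned in sign; 5 genes short of 2-fold did, IME1 (-0.07 after quantile normalization) and MSH5 among them. Each time has 1 array, so array error and culture error cannot be told from change. No paired analysis was possible because each time has 1 array. The share of promoters with a motif was not run.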

Other observations

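The lists not described above had at most 1 gene past 2-fold each as deposited. Storage carbohydrate genes had 1 of 16 higher, PGM2 at 1.32, and a median change of 0.20. Autophagy genes had 0 of 29 past 2-fold (median 0.06). Oxidative stress genes had 1 of 19 lower, the peroxiredoxin gene AHP1 at -1.15 (median -0.34), PIR and cell wall genes 1 of 13, CIS3 at -1.54 (median -0.44), and the phosphate regulon 1 of 16, the transporter gene PHO84 at -1.26 (median -0.10). In the zinc and copper regulon the copper transporter gene CTR3 was higher at 1.34 (14 genes, median -0.14).

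In 24 of the 5635 ORFs the 2 h value was at least 2-fold above those of both 1 h and 3 h. In 18 of the 5635 it was at least 2-fold below both. The first set held 6 core histone genes, POL30 and ECO1 among others, and the second MCM4, CPA1, FAR3 and PHO84 among others. These counts were made after the values were seen. IRC10 was at 0.59, 2.45, -0.40 and 2.42 at 1, 2, 3 and 4 h, OSW1 at 1.23, 2.46, 0.23 and 2.13, and TIM18 at -0.30, 1.39, -0.28 and 1.22, so these genes were higher at 2 h and 4 h than at 1 h and 3 h. FAR3 was at 1.82, -1.17, 1.55 and 1.23, low at 2 h alone among these times. Whether single spots account for such values was not tested.

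Some paired copies of ribosomal protein genes lay far apart in their change. Over 53 A and B pairs Pearson's r was -0.003 and Spearman's rho 0.07, across pairs, which share both arrays and are not replicates. Without the 3 pairs farthest apart, left out after their values were seen, r was 0.31 over 50 pairs. The median absolute difference was 0.35, and 7 pairs lay more than 1 apart. RPS22A was at -1.85 and RPS22B at 0.94, RPS7A at -1.74 and RPS7B at 0.67, and RPL9A at -0.24 and RPL9B at 1.64.

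Neighbouring genes were compared in the R64 order, as a description across pairs that share the same 2 arrays. Pearson's r of their changes was 0.178 over 1311 divergent pairs, 0.122 over 1299 convergent and 0.042 over 2498 tandem pairs. It was 0.014 for genes 5 apart and 0.038 for genes 10 apart. Spearman's rho was 0.115 for divergent, 0.128 for convergent and 0.063 for tandem pairs, beside 0.030 for genes 5 apart and 0.054 for genes 10 apart. The order of divergent and convergent pairs thus depended on the measure. Without the 4 divergent histone pairs, left out after they were seen, the divergent value was 0.107 over 1307 pairs by either measure. Both genes were at least 2-fold higher in 8 of 1311 divergent pairs, of which 4 are histone pairs. The same held for 4 of 1299 convergent and 4 of 2498 tandem pairs, and for 4 of 1307 divergent pairs without the histones. FKH2 with RPL9B and HSP82 with YAR1 are among these 4 divergent pairs. The 4 convergent pairs include HOP2 with AGA2, at 1.14 and 1.58, and ECM11 with RPS17B, at 1.68 and 1.32. PUT4 and its divergent neighbour CIN1 were at -2.55 and 0.84, COT1 and FAA1 at -2.34 and 0.63, and FAR3 and YMR051C at -2.99 and -1.44. HHF1 has a tandem neighbour, FLR1, at -1.13. YLL047W, numbered next to RNP1 and not in the gene table, was at 1.72, 4.08 and 5.23 at 1, 2 and 3 h beside 1.19, 4.22 and 5.04 for RNP1, and YBR089W, numbered next to POL30, at 0.78, 1.89 and 0.40. How far probes of such ORFs, or of the convergent neighbours above, read the same transcript was not tested.

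The 441 ORFs that did not match the gene table had 8 higher (1.81%) and 17 lower (3.85%), against 2.95% and 2.81% of the matched ones, and the spread of their changes was 0.54 (SD over ORFs) in both sets.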
